A study of Mus musculus with 2 samples.

Results

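The genes described here are those of the bone morphogenetic protein (BMP) and transforming growth factor beta (TGF-beta) pathways, taken by symbol: BMP and growth and differentiation factor (Gdf) ligands, TGF-beta ligands, inhibin subunits, activin, BMP and TGF-beta receptors, Smads, the Id genes and the latent TGF-beta binding proteins. The symbol rule matched 61 of the 24130 genes in the matrices and used no measured value. They were followed in 2 single-cell RNA libraries of papain-dissociated hippocampus from male C57BL/6 mice, whose age is given as 6 months although the sample titles call the brain aged. The control library came from mice with the treatment label saline. The EMF_AuNPs library came from mice given gold nanoparticles (AuNPs) by stereotaxic injection into the hippocampus and then housed for 3 weeks between Helmholtz coils, which apply an electromagnetic field (EMF). Whether saline mice spent time in the coils as well is unclear from the protocol, and how many animals each library pools is not stated. With 1 library per group there is no replicate check. "Higher" and "lower" below mean past a fold of 1.5 between these 2 libraries, and intervals (95%) cover counting error only.

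BMP and TGF-beta ligands bind pairs of type I and type II receptor kinases at the cell surface. BMP receptors phosphorylate Smad1, Smad5 and Smad9, while TGF-beta and activin receptors phosphorylate Smad2 and Smad3. Both groups enter the nucleus with Smad4, and Smad6 and Smad7 inhibit the signal. The Id genes, which encode inhibitors of basic helix-loop-helix transcription factors, are classical targets of BMP signalling, and TGF-beta is held in the matrix in a latent complex with binding proteins until it is activated. In the adult brain TGF-beta signalling is known for maintaining the identity of microglia, and BMP signalling for shaping blood vessels and holding neural stem cells in quiescence.

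The libraries held 21583 (control) and 7003 (EMF_AuNPs) barcodes with a median of 1904 and 2310 unique molecular identifiers (UMIs), and 38 barcode sequences occurred in both. Cells were put into classes by gates on marker genes, so a class name below stands for a gate and not for an annotation by the authors. One class was assigned to 16226 and 5402 cells, 5.99% and 7.95% passed no gate, and 18.3% and 14.8% carried markers of several classes and were left out as likely doublets. A further 771 and 393 of the assigned cells held only the minimum number of markers for their gate. The largest classes were oligodendrocytes (6140 and 1111 cells), microglia (3143 and 853), endothelial cells (2713 and 1034) and astrocytes (2334 and 1247). Excitatory neurons, the main cell of the hippocampus, were gated in only 185 and 32 cells. In the EMF_AuNPs microglia the 10 genes with the largest fold over the other classes included the immune genes Cd74, Ccl3, Ccl4 and Lyz2 and 2 of the 9 microglia markers, against 7 of the 9 in the control. Median UMIs per cell were higher in the EMF_AuNPs library in most classes (1541 and 1756 in microglia, 1506 and 2546 in astrocytes) but lower in the choroid plexus class (11250 and 6635). Levels are given as CPM, the UMIs of a gene per 1000000 UMIs summed over the cells of a class, and always in the order control, then EMF_AuNPs.

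The 61 pathway genes took 0.217% of the control UMIs and 0.268% of the EMF_AuNPs UMIs. UMIs were found for 58 of them, and Gdf2, Gdf7 and Inhbc had none in either library. Given counting error, this does not show that they were absent. Another 9 genes had under 50 UMIs over both libraries (Bmp3, Bmp8a, Bmp8b, Bmp10, Bmp15, Gdf3, Gdf6, Inhbe and Ltbp2). Levels were compared between classes for the 39 genes with at least 200 UMIs over 11 ordered classes. These had at least 30 cells and 100000 UMIs in each library, which excitatory neurons did not reach. Below, the highest and the next class of a gene are always among these 11. In 29 of the 39 genes the same class was highest in both libraries, against 58.2% of all 11402 genes that met the same minimum. In 15 of the 39 the highest class was over the next by 1.5-fold or more in both libraries, against 25.3% of all genes.

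**Figure D1:**
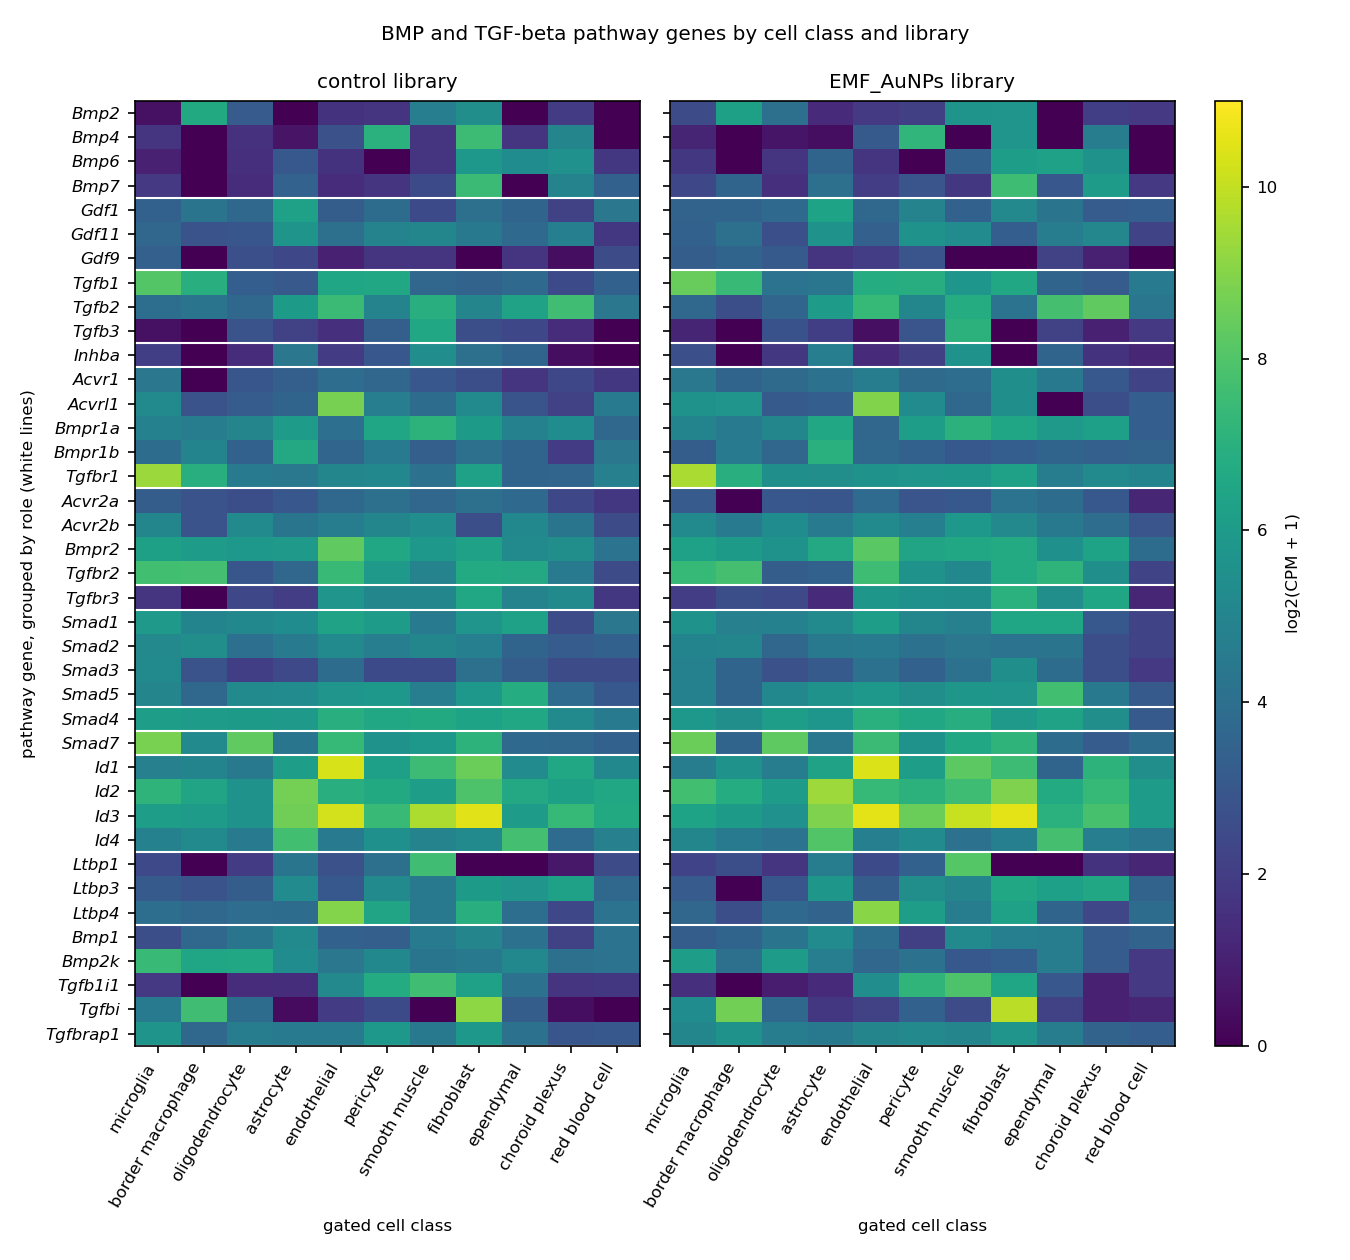
Level of the 39 pathway genes with enough UMIs, as log2(CPM + 1) in colour, by gated cell class (columns) in the control (left) and EMF_AuNPs (right) library, with white lines between roles. Id1 and Id3 in the endothelial class, Id3 in fibroblasts and smooth muscle cells, and Tgfbr1 in microglia are bright in both libraries.

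Among the TGF-beta ligands, each gene had another class at the top. Tgfb1 was highest in microglia, at 269 and 344 CPM, followed by border macrophages at 120 and 175 CPM. Tgfb2 was highest in the choroid plexus class, at 199 and 318 CPM, and stood at 182 and 164 CPM in endothelial cells. Tgfb3 was highest in the smooth muscle class, with 95.8 and 133 CPM there and 9.11 and 6.48 CPM in pericytes, the next class in both libraries. The inhibin beta A subunit gene Inhba, whose dimer is activin A, was also highest in smooth muscle cells (41.1 and 48.3 CPM from 18 and 20 UMIs). Astrocytes came next (19.8 and 25.3 CPM), and the smooth muscle and astrocyte intervals overlap in each library.

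Of the BMP ligands, 4 had enough UMIs to be ordered by class. Bmp7 was highest in fibroblasts, with 182 and 192 CPM from 84 and 38 cells, and the choroid plexus class came next with 29.4 and 63.9 CPM. Bmp4 was highest in fibroblasts in the control (188 CPM from 36 UMIs) and in pericytes in the EMF_AuNPs library (152 CPM). Pericytes had 130 CPM of Bmp4 in the control and fibroblasts 52.3 CPM in the EMF_AuNPs library, from 6 UMIs. Fibroblasts, with under 50 EMF_AuNPs cells, entered no comparison of the libraries. Bmp6 was shared between fibroblasts (57.3 and 69.8 CPM), ependymal cells (40.2 and 77.2 CPM) and the choroid plexus class (46.5 and 47.4 CPM), whose intervals overlap in each library. Bmp2 had its highest level in border macrophages, at 102 and 74.2 CPM, but this rests on 17 and 14 UMIs, while oligodendrocytes held 119 and 59 UMIs at 7.96 and 15.9 CPM.

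Of the Gdf ligands, Gdf1 was highest among the ordered classes in astrocytes, at 77.7 and 83.1 CPM. Excitatory neurons, outside those classes, had 79.5 and 183 CPM of it from 35 and 8 UMIs. Gdf1 lies within the same-strand transcription unit of Cers1, so reads of those genes cannot be told apart with certainty. Gdf11, a ligand close to myostatin, was highest in astrocytes in the control (51.5 CPM, with smooth muscle cells next at 31.9 CPM) and nearly equal in pericytes and astrocytes in the EMF_AuNPs library (48.6 and 48.2 CPM). Gdf9, best known from the oocyte, stayed at or under 10.6 CPM in every class. Its highest class was microglia in the control (9.45 CPM) and border macrophages in the EMF_AuNPs library, there from 2 UMIs. The remaining ligands with 50 UMIs or more were sparse: Gdf10 had 115 and 108 UMIs in the whole libraries, Inhbb 131 and 101, Bmp5 73 and 30, Gdf5 67 and 30 and Gdf15 54 and 28.

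The latent TGF-beta binding proteins, which anchor latent TGF-beta in the matrix, had different highest classes. Ltbp1 was highest in smooth muscle cells, at 198 and 273 CPM, with astrocytes next at 18.6 and 23.5 CPM. Ltbp4 was highest in endothelial cells at 499 and 533 CPM, with fibroblasts next at 120 and 78.5 CPM. Ltbp3 showed no such leader, with 77.5 and 95.9 CPM in the choroid plexus class and 62.5 and 95.9 CPM in fibroblasts.

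Of the receptors, Acvrl1 and Bmpr2 led in endothelial cells, Tgfbr1 in microglia and Bmpr1b in astrocytes. Acvrl1, the endothelial type I receptor for BMPs whose loss causes hereditary haemorrhagic telangiectasia, had 426 (408 to 444) and 478 (452 to 505) CPM in endothelial cells. The next class had 37.6 CPM (microglia, control) and 53.0 CPM (border macrophages, EMF_AuNPs). Bmpr2, the BMP type II receptor, was also highest in endothelial cells at 314 and 290 CPM, over pericytes in the control (93.3 CPM) and fibroblasts in the EMF_AuNPs library (105 CPM). Tgfbr1, the TGF-beta type I receptor, had 656 (634 to 679) and 780 (738 to 823) CPM in microglia against 120 and 122 CPM in border macrophages, the next class. Its partner Tgfbr2 was spread over border macrophages (210 and 212 CPM), microglia (200 and 164 CPM) and endothelial cells (167 and 189 CPM), with overlapping intervals between border macrophages and microglia. Bmpr1b, a BMP type I receptor, marked astrocytes (98.0 and 127 CPM), with border macrophages next at 30.0 and 21.2 CPM.

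The other receptors had no class that led by 1.5-fold in both libraries. Bmpr1a, the widely used BMP type I receptor, reached 139 and 135 CPM in smooth muscle cells, with pericytes next in the control (88.8 CPM) and astrocytes in the EMF_AuNPs library (95.7 CPM). Acvr2b, an activin type II receptor, was 41.1 and 57.9 CPM in smooth muscle cells and 36.0 and 39.6 CPM in oligodendrocytes. Acvr2a, its close relative, stayed low in the ordered classes, with its highest levels in pericytes (15.9 CPM, control) and fibroblasts (17.4 CPM, EMF_AuNPs). The next levels were in fibroblasts (15.6 CPM) and ependymal cells (14.0 CPM). Excitatory neurons, outside the ordered classes, had 22.7 CPM of Acvr2a in the control from 10 UMIs and none in the EMF_AuNPs library. They had 20.4 and 45.8 CPM of Acvr1 from 9 and 2 UMIs. Among the ordered classes Acvr1, a type I receptor for BMPs and activins, was highest in microglia in the control (19.7 CPM, endothelial cells next at 14.4). In the EMF_AuNPs library it was highest in fibroblasts (43.6 CPM from 5 UMIs, endothelial cells next at 24.4). The co-receptor Tgfbr3, or betaglycan, was highest in fibroblasts at 93.8 and 131 CPM, with endothelial cells (53.0 CPM) and then the choroid plexus class (88.7 CPM) next. Acvr1b, Acvr1c and Tgfbr3l had 46, 65 and 59 UMIs in the whole control library and 10, 13 and 32 in the EMF_AuNPs library.

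Among the Smads, Smad4, the common partner, was highest in endothelial cells at 123 and 127 CPM, with smooth muscle cells close behind at 100 and 113 CPM. Smad1 was 79.0 CPM in endothelial and 78.2 CPM in ependymal cells in the control, and 87.7 CPM in ependymal cells and 87.2 CPM in fibroblasts in the EMF_AuNPs library. Smad5 was the only Smad of the 39 genes with a class that led by 1.5-fold in both libraries, the ependymal class, with 110 and 203 CPM against 57.3 CPM (fibroblasts) and 57.5 CPM (endothelial cells) for the next class. Among the Smads of TGF-beta and activin receptors, Smad2 was 42.0 and 31.8 CPM in border macrophages, with endothelial cells (37.8 CPM) and microglia (30.1 CPM) next. Smad3 was 37.4 and 27.1 CPM in microglia, with fibroblasts at 15.6 and 43.6 CPM, the second value from 5 UMIs. The inhibitory Smad7, itself a target of the pathway, was highest in microglia at 435 and 371 CPM, followed by oligodendrocytes at 319 and 304 CPM. Smad6 and Smad9 had 155 and 156 UMIs in the whole control library and 123 and 54 in the EMF_AuNPs library.

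The Id genes differed in the class where each was highest. Id1 was highest in endothelial cells, with 1309 (1277 to 1341) and 1381 (1336 to 1427) CPM, over 365 CPM in control fibroblasts and 302 CPM in EMF_AuNPs smooth muscle cells. Id3 was highest in fibroblasts (1433 and 1518 CPM) and endothelial cells (1221 and 1497 CPM), with smooth muscle cells at 792 and 1082 CPM. Id2 was highest in astrocytes, at 421 and 669 CPM, with fibroblasts next at 240 and 471 CPM. Id4 was highest in control ependymal cells and in EMF_AuNPs astrocytes, but the 2 classes lay close together, at 211 and 218 CPM in ependymal cells and 201 and 256 CPM in astrocytes.

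The other 5 genes carry a pathway name without being ligands, receptors or Smads. Tgfbi, a matrix protein first found as a TGF-beta induced gene, had 558 and 925 CPM in fibroblasts and 198 and 403 CPM in border macrophages. Tgfb1i1, a focal adhesion adaptor, was 196 and 244 CPM in smooth muscle cells and 107 and 146 CPM in pericytes. Bmp2k, a kinase named for its induction by BMP2 and active in endocytosis, was highest in microglia (169 and 69.3 CPM) and then in oligodendrocytes (96.0 and 65.5 CPM). Bmp1, a metalloprotease that processes procollagen, was 35.9 and 38.9 CPM in astrocytes, with fibroblasts (31.3 CPM) and smooth muscle cells (36.2 CPM) next. Tgfbrap1, a receptor-associated protein also known from endosomal tethering, was 57.3 and 52.3 CPM in fibroblasts, with pericytes (56.9 CPM) and border macrophages (47.7 CPM) next.

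Outside the 11 ordered classes, Cajal-Retzius cells, early-born neurons of the hippocampal fissure (106 and 38 cells), had values that were picked out after they were seen. Smad1 was 183 and 163 CPM there from 34 and 10 UMIs, above its level in every ordered class, although the EMF_AuNPs interval (78.3 to 300.3) reaches down to those levels. Gdf5, a BMP-like ligand, was 75.3 and 114 CPM from 14 and 7 UMIs.

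By class, among the 11 ordered ones, the following genes led in both libraries by 1.5-fold. In endothelial cells they were Acvrl1, Bmpr2, Id1 and Ltbp4 (4 of 39 pathway genes, against 3.32% of all genes). In smooth muscle cells they were Inhba, Ltbp1, Tgfb1i1 and Tgfb3 (4, against 1.65%). Tgfb1 and Tgfbr1 led in microglia (2, against 2.21%), Bmpr1b and Gdf1 in astrocytes (2, against 3.27%), Bmp7 and Tgfbi in fibroblasts (2, against 1.36%), and Smad5 in ependymal cells (1, against 5.14%). No pathway gene led in oligodendrocytes (0, against 4.75%), border macrophages (0, against 1.18%), pericytes (0, against 1.03%), the choroid plexus class (0, against 1.28%) or red blood cells (0, against 0.105%). Endoglin (Eng), the Acvrl1 co-receptor and no member by its symbol, was highest in endothelial cells as well (676 and 606 CPM).

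The libraries were then compared within the 10 classes that had at least 50 cells in each. A gene was compared in a class where it had at least 50 UMIs over both libraries, which 43 of the 61 genes reached in 1 class or more and 18 in none. This gave 180 pairs of a gene and a class. Of these, 36 were higher and 9 lower in the EMF_AuNPs library and 135 lay within 1.5-fold. Of the 5 genes that carry only a pathway name, Bmp2k gave 4 and Tgfbrap1 1 of the lower pairs. Tgfbi gave 2 and Bmp1 1 of the higher pairs. Differences are log2 ratios of EMF_AuNPs over control CPM with 1 CPM added to each. All genes of a class were shifted too, by a median of 0.20 in astrocytes, 0.32 in the choroid plexus class and -0.42 in red blood cells. Centred on those medians, the split of 36 higher and 9 lower pairs became 25 and 12.

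**Figure D2:**
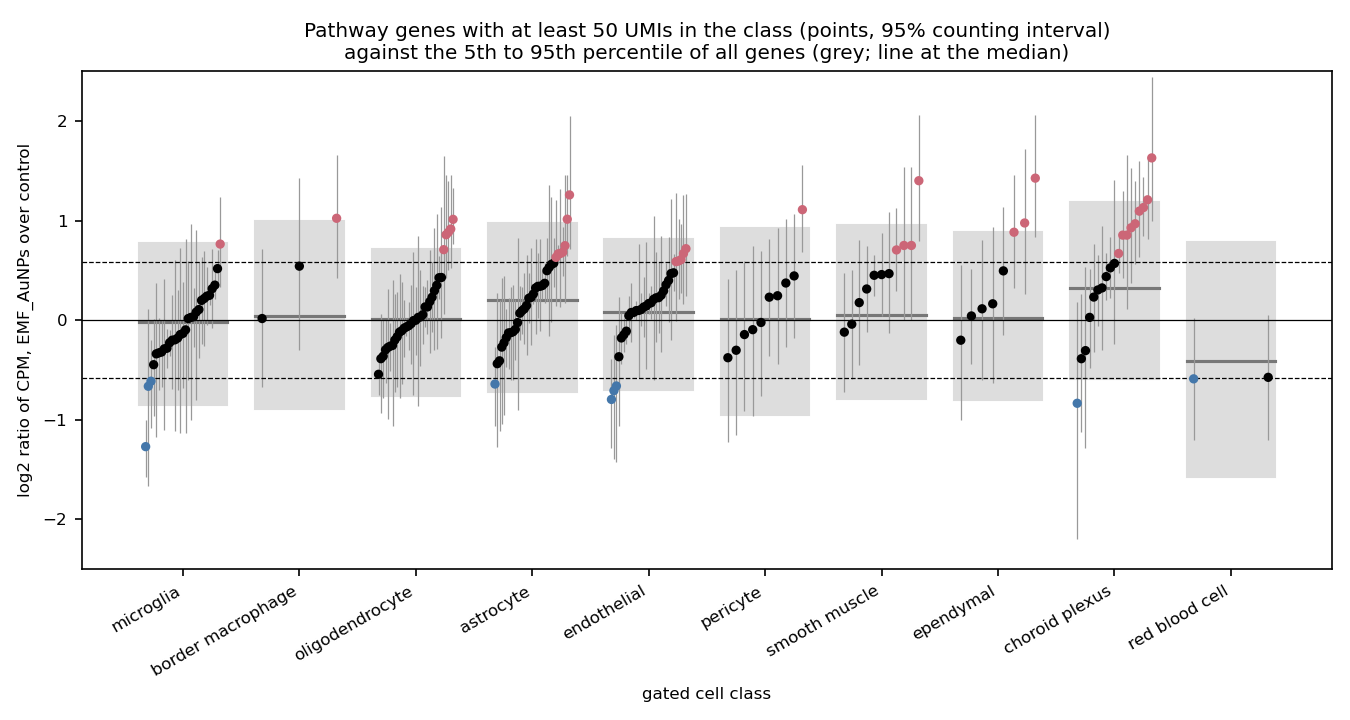
Log2 ratio of EMF_AuNPs over control CPM for each pathway gene with at least 50 UMIs in a class (points, sorted within the class, with 95% counting intervals computed without the added CPM), against the 5th to 95th percentile of all genes in that class (grey, with a line at their median). Red and blue points are past 1.5-fold (dashed lines), and most points of every class lie inside the grey range.

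The 4 largest classes allowed about the same number of pathway genes to be compared. In microglia 1 of 29 genes compared was higher (9.71% of all genes) and 3 were lower (13.3% of all genes). In oligodendrocytes 5 of 33 were higher (8.37% of all genes) and 0 lower (9.47%). In astrocytes 7 of 34 were higher (20.2% of all genes) and 1 lower (7.68%). After centring, 2 were higher and 3 lower there. In endothelial cells 5 of 31 were higher (12.1% of all genes) and 3 lower (7.66%). Centring left 2 higher (9.01% of all genes) and 3 lower (10.5%) in this class.

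Fewer genes could be compared in the smaller classes. In the choroid plexus class 9 of 19 were higher (31.2% of all genes) and 1 lower (5.27%). Centring left 6 higher (13.2% of all genes) and 3 lower (13.4%) in this class. In smooth muscle cells 4 of 11 were higher (15.3% of all genes) and 0 lower (11.1%). In ependymal cells 3 of 8 were higher (14.1%) and 0 lower (10.8%), in pericytes 1 of 10 was higher (12.3%) and 0 lower (13.9%), and in border macrophages 1 of 3 was higher (16.5%) and 0 lower (12.9%). In red blood cells 0 of 2 were higher (8.79%) and 1 was lower (38.1%).

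Tgfbr1 and Tgfb1, the receptor and ligand that were highest in microglia, had ratios above 0 in every class where they were compared (5 and 6 classes). Bmp2k had ratios below 0 in all of its 5. Of 19 pathway genes compared in at least 5 classes these 2 and 1 kept a single direction. Of all such genes 24.1% were above 0 throughout and 13% below, so a single direction was not more common among pathway genes. The bases before the start sites of these 3 genes are shown because they moved one way across classes, and those of Id4 because it is the Id gene whose stretch is free of annotated exons. Capitals mark GGCGCC, the core of the BMP response element to which Smad1 and Smad5 bind. Each is the 250 bases upstream of the transcript start on the plus strand, from RefSeq on GRCm38.p6, at chr4:47352972-47353221 for Tgfbr1, chr7:25686752-25687001 for Tgfb1, chr5:96997439-96997688 for Bmp2k and chr13:48260866-48261115 for Id4.
Tgfbr1: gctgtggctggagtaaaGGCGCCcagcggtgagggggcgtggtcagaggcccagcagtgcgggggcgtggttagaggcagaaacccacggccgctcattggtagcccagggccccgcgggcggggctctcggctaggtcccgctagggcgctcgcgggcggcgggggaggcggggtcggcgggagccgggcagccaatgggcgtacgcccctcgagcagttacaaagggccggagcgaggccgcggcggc
Tgfb1: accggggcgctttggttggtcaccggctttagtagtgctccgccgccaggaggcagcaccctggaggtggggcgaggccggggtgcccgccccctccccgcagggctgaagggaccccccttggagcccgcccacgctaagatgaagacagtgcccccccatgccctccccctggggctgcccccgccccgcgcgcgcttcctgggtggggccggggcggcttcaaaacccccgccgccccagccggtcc
Bmp2k: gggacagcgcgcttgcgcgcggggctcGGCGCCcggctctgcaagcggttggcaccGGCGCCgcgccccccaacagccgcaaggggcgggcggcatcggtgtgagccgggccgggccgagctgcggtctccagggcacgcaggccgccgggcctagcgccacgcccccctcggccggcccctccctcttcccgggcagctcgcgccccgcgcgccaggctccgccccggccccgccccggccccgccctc
Id4: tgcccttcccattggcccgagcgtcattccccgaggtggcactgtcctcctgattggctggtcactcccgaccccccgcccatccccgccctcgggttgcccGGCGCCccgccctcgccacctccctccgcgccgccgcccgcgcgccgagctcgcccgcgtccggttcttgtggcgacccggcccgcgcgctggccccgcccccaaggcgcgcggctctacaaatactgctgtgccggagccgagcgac
The capitals begin 233 bases before the Tgfbr1 start, 223 and 194 before the Bmp2k start and 148 before the Id4 start, and these letters are not in the Tgfb1 stretch. Such stretches were at hand for 45 of the 61 genes, with 57 start sites. GGCGCC, searched on both strands, was in 22.8% of those 57 and in 9.59% of all 32851 stretches in the table. The shorter Smad3 and Smad4 motif GTCTG, also searched on both strands, was in 45.6% and 42.2%. A match describes letters only and is no evidence of binding.

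In microglia themselves Tgfbr1 stayed within 1.5-fold, with a log2 ratio of 0.25 (656 and 780 CPM), and so did Tgfb1. After thinning each cell to 1000 UMIs, 47.9% of 2783 control and 53.1% of 610 EMF_AuNPs microglia had a Tgfbr1 UMI, a difference of 5.18 points (0.80 to 9.52). Without thinning the shares were 60.5% of 3143 and 66.2% of 853 cells. Oligodendrocytes, which serve here as background, had a Tgfbr1 UMI in 2.05% and 4.12% of thinned cells.

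Outside microglia Tgfbr1 was low but higher in the EMF_AuNPs library in 4 classes. It had 21.3 and 43.9 CPM in oligodendrocytes (log2 ratio 1.01), 20.3 and 42.0 in astrocytes (1.01), 31.9 and 49.1 in endothelial cells (0.61) and 11 and 36.1 in the choroid plexus class (1.63). Tgfb1 was likewise higher in oligodendrocytes (8.89 and 17.2 CPM, log2 ratio 0.88) and astrocytes (7.43 and 19.1 CPM, 1.26). Microglia markers moved with these values: the summed level of the 9 microglia markers was 324 and 920 CPM in oligodendrocytes, 350 and 761 in astrocytes, 374 and 1039 in endothelial cells and 140 and 221 in the choroid plexus class, with 19209 and 21235 CPM in microglia. Per 100 microglia-marker UMIs, Tgfbr1 had 6.56 and 4.77 UMIs in oligodendrocytes, 5.80 and 5.52 in astrocytes and 8.53 and 4.72 in endothelial cells, so on that scale it was not higher in the EMF_AuNPs library in those classes. In the choroid plexus class it had 7.83 and 16.4, and in microglia 3.41 and 3.67. The part of free microglial RNA in the Tgfbr1 and Tgfb1 results was not tested.

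**Figure D3:**
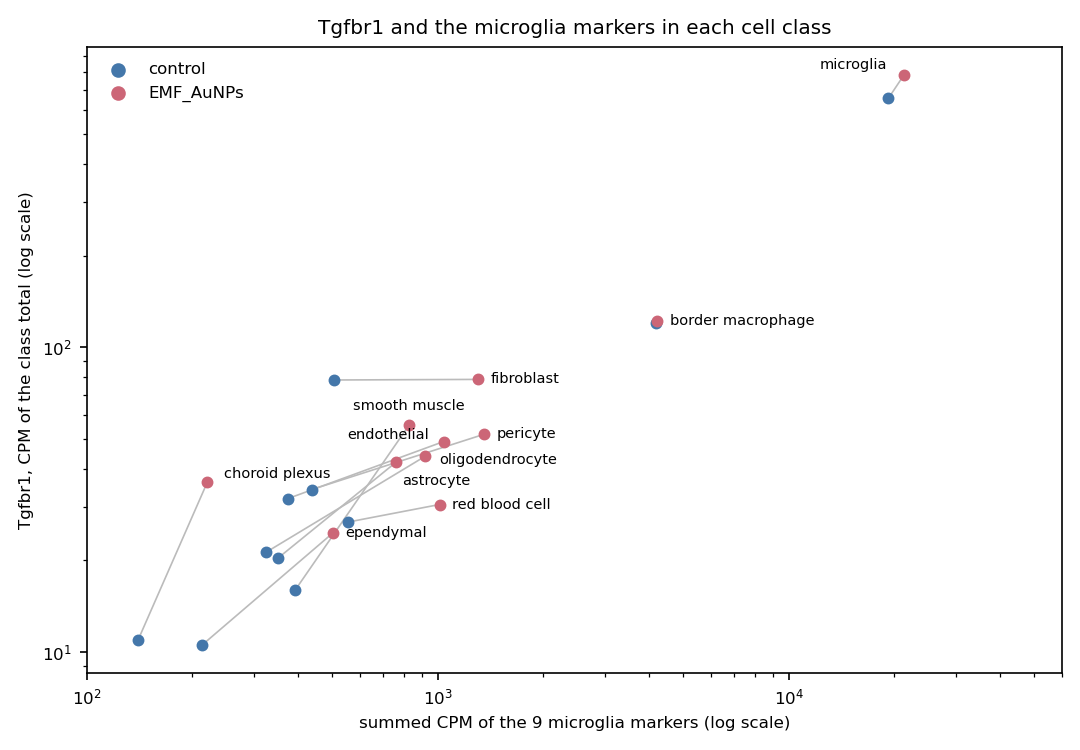
Tgfbr1 level (CPM, log scale) against the summed level of the 9 microglia markers (CPM, log scale) in each gated class, with a grey line from the control to the EMF_AuNPs library. In oligodendrocytes, astrocytes, endothelial cells and ependymal cells both values move up together, the ependymal Tgfbr1 values from only 5 and 7 UMIs. Border macrophages stay in place at 120 and 122 CPM of Tgfbr1.

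Bmp2k, a gene that carries only a pathway name, had the lowest ratio of the 61 genes that could be compared in microglia. Its UMIs in microglia numbered 858 (control) and 115 (EMF_AuNPs), that is 169 (158 to 181) and 69.3 (57.3 to 83.2) CPM, a log2 ratio of -1.27. Of thinned microglia 15.8% of 2783 and 6.07% of 610 had a Bmp2k UMI, a difference of -9.71 points (-11.9 to -7.16), against 1.79% and 1.05% of thinned endothelial cells. Without thinning, 22.9% and 12.1% of microglia had one. It was also lower in astrocytes (40.1 and 25.3 CPM, log2 ratio -0.64), endothelial cells (19.3 and 11.4 CPM, -0.71) and the choroid plexus class (15.5 and 8.25 CPM, -0.84, from 8 UMIs in the EMF_AuNPs library). Taken against the median ratio of the same gene in the other classes, the microglial value was -0.60, and those of astrocytes and endothelial cells changed sign to 0.13 and 0.03. Bmp2k overlaps Gm43145 on its own strand and Paqr3 on the other.

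Among the Id genes, Id2 was higher in astrocytes, smooth muscle cells and the choroid plexus class. In astrocytes it went from 421 (402 to 442) to 669 (641 to 698) CPM, a log2 ratio of 0.67. Centred on the median of all astrocyte genes the ratio was 0.47, which is within 1.5-fold. Of astrocytes thinned to 1000 UMIs, 31.1% of 1828 and 44.8% of 1017 had an Id2 UMI, a difference of 13.7 points (9.99 to 17.4), and oligodendrocytes had one in 4.17% and 6.90%. Without thinning the astrocyte shares were 42.0% and 63.5%. Id2 was 70.7 and 188 CPM in smooth muscle cells (log2 ratio 1.40) and 74.3 and 164 CPM in the choroid plexus class (1.13), where thinning to 1000 UMIs brought the ratio to 0.06. The astrocyte markers, summed, were 2669 and 1847 CPM in smooth muscle cells and 420 and 532 CPM in the choroid plexus class.

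Id1 did not pass 1.5-fold in endothelial cells, the class where it was highest. With 66.1% of 2180 control and 66.6% of 953 EMF_AuNPs cells having an Id1 UMI after thinning, the difference was 0.577 points (-3.05 to 4.13), and oligodendrocytes had 2.26% and 1.53%. Without thinning the shares were 72.4% and 80.5%. In smooth muscle cells Id1 was 185 and 302 CPM (log2 ratio 0.70), and this call ended when mixed cells were kept (0.27). In fibroblasts, which were not compared, Id1 had 365 and 183 CPM from 70 and 21 UMIs.

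Id3 had its largest differences in small classes. It was higher in pericytes (171 and 370 CPM from 75 and 114 UMIs, log2 ratio 1.11) and in ependymal cells (65.5 and 130 CPM from 31 and 37 UMIs, 0.98). It was lower in red blood cells (102 and 67.4 CPM from 42 and 53 UMIs, -0.59), with an interval of -1.21 to 0.02 that includes 0. Centred on the class median the red blood cell value was -0.17, within 1.5-fold, and 170 of the 285 control cells of that class held only the minimum of markers. Keeping mixed cells brought the pericyte ratio to 0.12, and a gate of 5 markers brought the ependymal ratio to 0.31. Endothelial markers, the markers of a class rich in Id3, were summed at 763 and 661 CPM in pericytes and 279 and 165 CPM in ependymal cells. Id4 was higher in the choroid plexus class alone among the 6 classes where it was compared (13.2 and 24.7 CPM, log2 ratio 0.85), and centring brought this to 0.53.

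**Figure D4:**
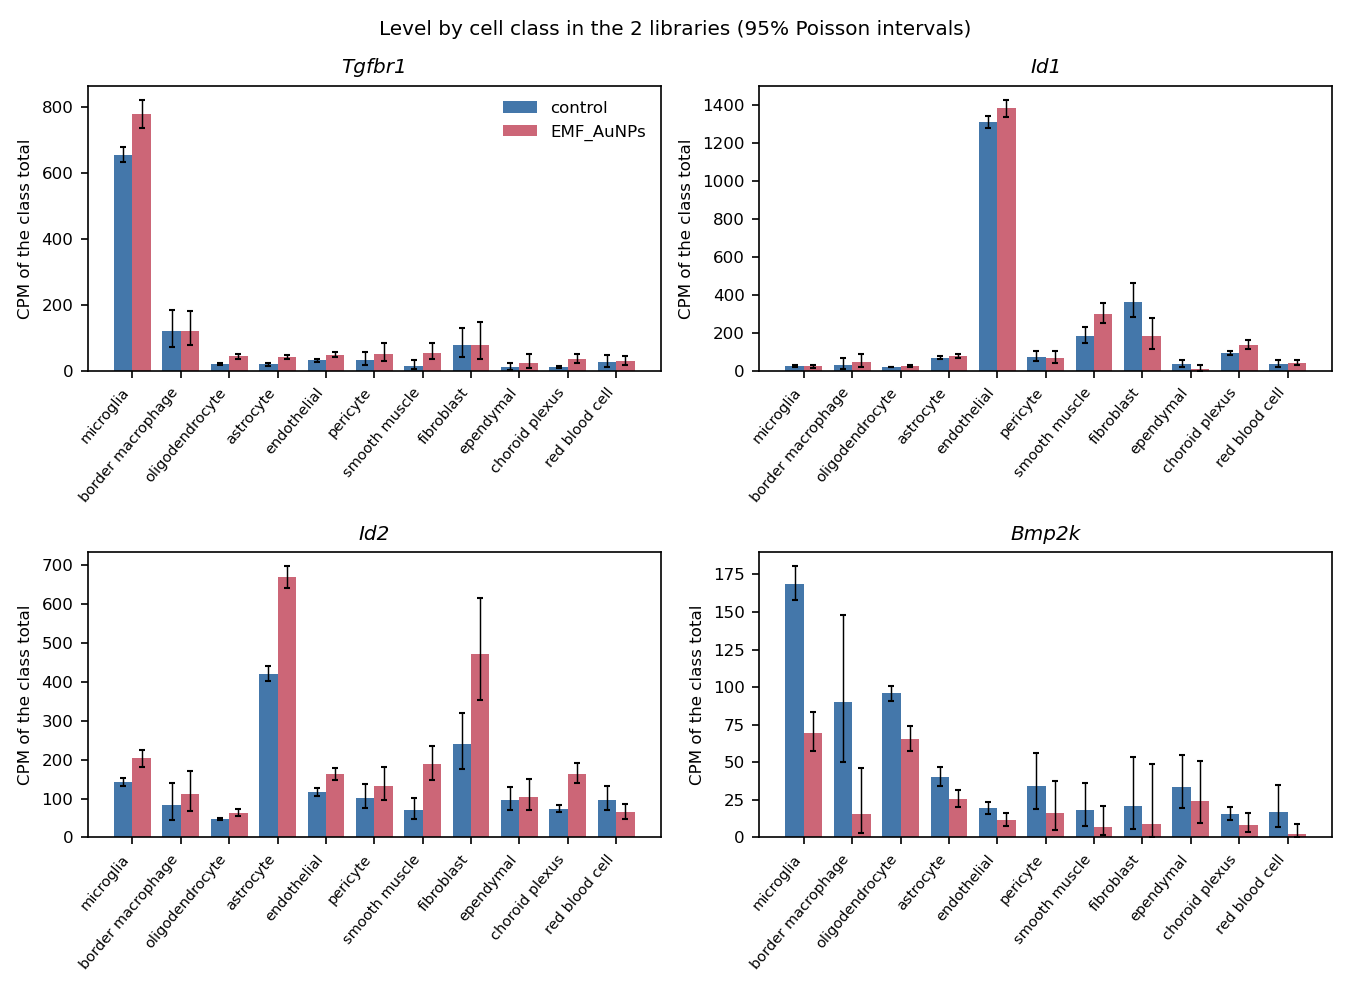
Level (CPM of the class total, bars from 0, with 95% Poisson intervals) of Tgfbr1, Id1, Id2 and Bmp2k in 11 gated classes of the control (blue) and EMF_AuNPs (red) library. Tgfbr1 and Id1 stand out in microglia and endothelial cells in both libraries, the Id2 bar of astrocytes is taller in the EMF_AuNPs library (421 and 669 CPM), and the Bmp2k bar of microglia is shorter (169 and 69.3 CPM).

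In the choroid plexus class, the epithelium that secretes cerebrospinal fluid, some receptors and some ligands were higher. The receptors were Bmpr1a (40.1 and 73.2 CPM, log2 ratio 0.85), Bmpr2 (41.7 and 82.5 CPM, 0.97), Tgfbr2 (22.3 and 43.3 CPM, 0.93) and Tgfbr3 (37.8 and 88.7 CPM, 1.21). The ligands were Bmp7 (29.4 and 63.9 CPM, 1.09) and Tgfb2 (199 and 318 CPM, 0.67), while the ligand Bmp6 stayed within 1.5-fold (0.03). Centred on the class median, Bmpr1a and Tgfb2 came to 0.53 and 0.35, within 1.5-fold. All genes of this class were shifted upward by a median of 0.32, its cells were shallower in the EMF_AuNPs library, and the part of both in the values was not tested. Its own 8 markers were summed at 3573 and 5031 CPM.

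In endothelial cells the higher genes besides Tgfbr1 were Acvr1, Acvr2b, Smad6 and the protease gene Bmp1, each under 50 CPM. Acvr1 was 14.4 and 24.4 CPM (log2 ratio 0.72), Acvr2b 24.4 and 37.3 CPM (0.59), Smad6, which inhibits BMP Smads, 12.8 and 20.9 CPM (0.67), and Bmp1 9.54 and 14.8 CPM (0.59), with an interval that includes 0. Centred on the class median, Acvr2b, Bmp1 and Tgfbr1 came to 0.52, 0.51 and 0.53, within 1.5-fold. Lower were Smad2 (37.8 and 21.3 CPM, -0.80) and Gdf11 (15.6 and 9.51 CPM, -0.66). The genes that define the endothelial pattern, Acvrl1, Bmpr2, Id1 and Ltbp4, all lay within 1.5-fold.

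In astrocytes the BMP type II receptor Bmpr2 was 60.6 and 97.9 CPM (log2 ratio 0.68), which centring brought to 0.48. Acvr1 was 9.16 and 16.1 CPM (0.75), and thinning brought it to 0.12. The ligand genes Gdf10, an astrocyte-enriched BMP relative, and Inhbb, an activin subunit, were 13.6 and 21.6 CPM (0.63) and 10.9 and 17.9 CPM (0.67). Centring brought these 2 to 0.43 and 0.47.

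Oligodendrocytes showed higher values of genes that stood low in them. Acvr1 was 6.69 and 12.9 CPM (log2 ratio 0.86), Bmp2 7.96 and 15.9 CPM (0.92) and Smad3 3.08 and 5.66 CPM (0.71, from 46 and 21 UMIs). Smad7, the pathway gene that oligodendrocytes did express at a high level, was 319 and 304 CPM. Red blood cell markers in this class were summed at 745 and 5365 CPM and microglia markers at 324 and 920 CPM, and their part in the result was not tested.

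In the mononuclear phagocytes the matrix gene Tgfbi was higher. It was 198 and 403 CPM in border macrophages (log2 ratio 1.02, from 33 and 76 UMIs) and 23.0 and 39.8 CPM in microglia (0.76). In microglia the border macrophage markers were summed at 187 and 286 CPM, and their part in the result was not tested. Bmpr1b (14.0 and 8.44 CPM, -0.67, with an interval that includes 0) and Tgfbrap1 (50.4 and 32.6 CPM, -0.61) were lower in microglia.

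In smooth muscle cells Bmpr2 and the inhibitory Smad7 each had 25 and 40 UMIs, that is 57.0 and 96.6 CPM. The log2 ratio was 0.75 for both, with an interval of 0.004 to 1.54. The lowest ratio under the alternative settings was 0.38 for Bmpr2 and 0.33 for Smad7, within 1.5-fold. In ependymal cells Smad5 was 110 and 203 CPM (0.88) and Tgfb2 80.3 and 218 CPM (1.43). A gate of 5 markers brought the Tgfb2 ratio to 0.06, and choroid plexus markers in the ependymal class were summed at 1306 and 1070 CPM.

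The pathway has other genes whose symbols fall outside the rule, and 65 of them were listed: secreted antagonists, co-receptors, activators of latent TGF-beta, intracellular regulators, targets and other ligands. In microglia 2 of 30 compared were higher (9.71% of all genes) and 2 lower (13.3%), and in oligodendrocytes 3 of 32 were higher (8.37%) and 3 lower (9.47%). In astrocytes 5 of 31 were higher (20.2%) and 5 lower (7.68%), and in endothelial cells 4 of 35 were higher (12.1%) and 3 lower (7.66%). In the choroid plexus class 8 of 20 were higher (31.2%) and 0 lower (5.27%). In pericytes 3 of 14 were higher (12.3%) and 2 lower (13.9%), in smooth muscle cells 3 of 16 (15.3%) and 1 (11.1%), and in border macrophages 2 of 6 (16.5%) and 2 (12.9%). In ependymal cells 1 of 8 was higher (14.1%) and 0 lower (10.8%), and in red blood cells 1 of 4 was higher (8.79%) and 0 lower (38.1%). The largest differences included Itgav, the integrin subunit of the receptors that release TGF-beta from its latent complex. It was 64.4 and 174 CPM in astrocytes (log2 ratio 1.42). The integrin genes Itgb8 (33.7 and 16.1 CPM) and Itgb1, on the same list, were lower in astrocytes. Junb, an immediate early gene and TGF-beta target, was 23.5 and 59.9 CPM in astrocytes (1.31) and 20.3 and 42.6 CPM in oligodendrocytes (1.03). Tgif1, a Smad corepressor, was 23.4 and 42.2 CPM in microglia (0.82), and Ctgf, a target in vessel cells, was 13.6 and 6.47 CPM in endothelial cells (-0.97).

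Sostdc1, a secreted BMP antagonist, was highest in the choroid plexus class in both libraries. It was 1445 and 1456 CPM in that class and far lower in microglia (27.5 and 12.1 CPM, log2 ratio -1.13), oligodendrocytes (21.5 and 12.1 CPM, -0.78) and endothelial cells (22.1 and 8.75 CPM, -1.25). The summed choroid plexus markers in microglia were 102 and 58.5 CPM, and their part in the result was not tested. Other genes of the list had clear classes in both libraries: Htra1 in astrocytes (1186 and 1506 CPM), Nbl1 in pericytes (651 and 840 CPM), Crim1 in smooth muscle cells (443 and 408 CPM), and the feedback regulators Pmepa1 (1282 and 927 CPM), Ski (250 and 212 CPM) and Skil (230 and 184 CPM) in microglia.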

How the data were processed

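The deposited matrices hold whole-number raw UMI counts for each gene in each barcode, and the submitters' processing notes name Cell Ranger 3.0.2, STAR without a version, and the build mm10 for what the authors did. The gene annotation is not given in the sources used here. All 24130 symbols were used as given, and 123 of them join several genes. Kept were 21425 and 6996 cells, those reaching 500 UMIs and 250 genes. A cell passed a gate with at least 3 marker genes (2 for lists under 5) and a marker share of at least 5 times that in the cells outside the class, and it took the class with the largest share of its markers detected. It was mixed, and left out, where another unrelated class had at least 50% as large a share. No doublet caller was run. UMIs were summed per library and class. CPM carry exact Poisson intervals, ratios an exact conditional binomial interval, shares of cells a Clopper-Pearson interval and differences of shares a Newcombe interval. With 1 library per group no test was made, and p-values are not given. The libraries held 51091452 and 19544686 UMIs.

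Named are the genes past 1.5-fold with at least 50 UMIs in a class, the highest and next class of each gene with at least 200 UMIs, and the 2 largest differences of the wider pathway list in the 4 classes with the most cells. The members and lists were chosen with earlier results of these data known. The ratio and interval scripts were tested on simulated data. Alternatives changed the added CPM, the UMI minimum, the fold, the scaling, the depth, the gate, the mixed cells and the weighting. Analyses used Python 3.11.15, numpy 2.4.6, scipy 1.17.1, pandas 2.3.3 and matplotlib 3.10.9. Coordinates are those of the GENCODE and RefSeq tables for GRCm38 (mm10). The symbols of 11 members overlap another gene on the same strand and 24 on the other.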

Additional observations from a re-analysis of the deposited data

Results flagged for a closer look

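The ratio of Id3, a BMP target gene, differed in direction between classes. It was 1.11 in pericytes and 0.98 in ependymal cells and -0.59 in red blood cells, on the log2 scale of EMF_AuNPs over control. The red blood cell value has an interval that includes 0 (-1.21 to 0.02) and is -0.17 when centred on the class median of -0.42. Each class is 1 library against 1, and the difference between the classes was not tested. With cells of at least 1000 UMIs the red blood cell value was 0.67.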

How the results depend on the processing

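Of 45 pairs past 1.5-fold, 39 kept their direction under every alternative, as did 395 of 401 values. Part of this was fixed in advance. Adding 0.1 or 10 CPM cannot change a sign, and no class median was as large as a 1.5-fold ratio. All 45 pairs therefore had to keep their direction under those settings and under centring. The 36 higher and 9 lower pairs became 23 and 2 with 10 CPM added, 55 and 20 with at least 20 UMIs, 11 and 4 with at least 200 UMIs, 130 and 77 with no minimum, and 11 and 1 at a fold of 2. Taken minus the median ratio over the other classes they were 20 and 14. Thinning to 1000 UMIs left 16 higher, with 103 pairs compared, and keeping mixed cells gave 24 lower. Values that changed sign were Acvr1 (-0.030) and Tgfbr1 (-0.41) in endothelial cells and Bmp2k in astrocytes (0.13) and endothelial cells (0.031), all minus the median over the other classes, Bmp2k in the choroid plexus class when thinned (0.11), and Id3 in red blood cells with at least 1000 UMIs (0.67). Differences in shares of cells moved to 8.07 points for Id1 without thinning, to -4.34 for Bmp2k at 500 UMIs, and to 9.06 at 500 UMIs and 21.5 without thinning for Id2. The cause was not tested beyond the alternatives' own construction. The same class was highest in both libraries for 27 and 28 of 39 genes under the 2 alternatives run, against 29. Depth limits the small classes, where a ratio can rest on as few as 50 UMIs. No paired analysis was possible because each group has 1 library.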
